A study of Drosophila melanogaster with 12 samples.

Results

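The transcripts described here were those whose daily profile in fly heads peaked at hours 0 to under 6, counted from the onset of the cold phase. The peak was fitted jointly to a day in a temperature cycle and to the constant day after it. These transcripts numbered 29 probe sets, 0.357% of the 8121 with a mean log2 value of at least 4, among 13966 probe sets other than controls. A probe set was a member when its 12 values, after removal of each day's mean, were fitted by a single 24-h cosine and sine that held at least 60% of the variance, with an amplitude (mean to peak, log2) of at least 0.2 and a peak in that window. The members were thus chosen by these same values, and 2 probe sets were left out by name. The same limits gave 52 probe sets with a peak at hours 6 to under 12, 18 at hours 12 to under 18 and 9 at hours 18 to under 24, so that 108 (1.33%) qualified at any hour.

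The flies were adult *y w*, a laboratory strain marked by its yellow body and white eyes and not mutant for the clock. They were kept in constant darkness throughout, first at 25 °C and then for more than 4 days in cycles of 18 °C and 25 °C. On the CA (cold/ambient) day the cryophase at 18 °C gave hours 2, 6 and 10 and the thermophase at 25 °C gave hours 14, 18 and 22. On the next day, AA (ambient/ambient), all 6 hours were at 25 °C, and the hours that had been cold are the subjective cryophase and the rest the subjective thermophase. Each hour was 1 array (Affymetrix Drosophila Genome 1) of RNA from pooled heads, which makes 6 arrays a day and 4 groups of 3 arrays. Temperature and day of collection cannot be told apart in the comparison of CA with AA, since the AA flies were also collected a day later. Whole heads mix brain, eye, fat body and cuticle, so that fewer cells of a type and less RNA per cell cannot be told apart.

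In the fly clock, the transcription factors CLK and CYC switch on *per*, *tim*, *vri* and *Pdp1*, and the PER and TIM proteins then shut CLK and CYC off. In light cycles *per* and *tim* RNA rise and fall together, but the study reports that in a temperature cycle *per* RNA peaked before *tim* RNA. VRI represses and PDP1 activates *Clk*, so that *Clk* RNA runs opposite to *per* and *tim*. Genes driven by the second loop can share the phase of *Clk*. In heads, most rhythmic RNA comes from peripheral cells such as photoreceptors, pigment cells and fat body rather than from the few pacemaker neurons.

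As measured facts about the arrays, their medians lay between 4.35 and 4.39 (log2) and the correlation between any pair of them, taken over the probe sets other than controls, lay within 0.974 to 0.995. Markers of head tissues were present: 4 of 8 listed photoreceptor genes were found by symbol, at or above percentile 97.4 of mean level, and 4 of 5 neuronal genes lay between percentiles 61.4 and 91.2. For fat body, 4 of 5 lay at or above percentile 97.8, and for muscle 4 of 5 lay between percentiles 25.4 and 99.3. Markers of other body parts were also present. For gut, 6 of 6 lay between percentiles 87.7 and 97.9, and for the male reproductive tract 4 of 6 lay between percentiles 1.3 and 89.4. A gut score of 32 genes and a male reproductive score of 28 genes (each a mean deviation, log2) were averaged with equal weight. This combined score ranged from -0.40 to 0.71 over the CA arrays and from -0.43 to 0.36 over the AA arrays, and its own 24-h fit peaked at hour 20.8. A score of 22 neuronal genes ranged from -0.12 to 0.21 over the CA arrays and from -0.24 to 0.16 over the AA arrays. The 3′ minus 5′ signal of *eIF-4a*, a control for RNA and labelling quality, ranged from 0.96 at AA2 to 3.23 at CA22, and 24-h time held 6.54% of its variance.

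The 29 members included no gene of the core clock list. Of their probe sets, 26 carried a single gene symbol, 1 carried both *CG11889* and *CG11891* (called *CG11889*/*CG11891* below), and 2 (142370_at and 151545_at) carried none. Amplitudes ran from 0.20 to 0.82, with a median of 0.30, which corresponds to a fitted peak-to-trough fold of 1.33 to 3.12 with a median of 1.51. Fitted peaks ran from hour 1.11 to hour 5.95 with a median of 4.64, and 4 members peaked before hour 3, 12 between hours 3 and 5, and 13 after hour 5. The standard error of a peak hour was 0.59 to 1.09 h, so that most neighbours in this order were not separated by their errors. All these values chose the members and are given as a description.

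**Figure D1:**
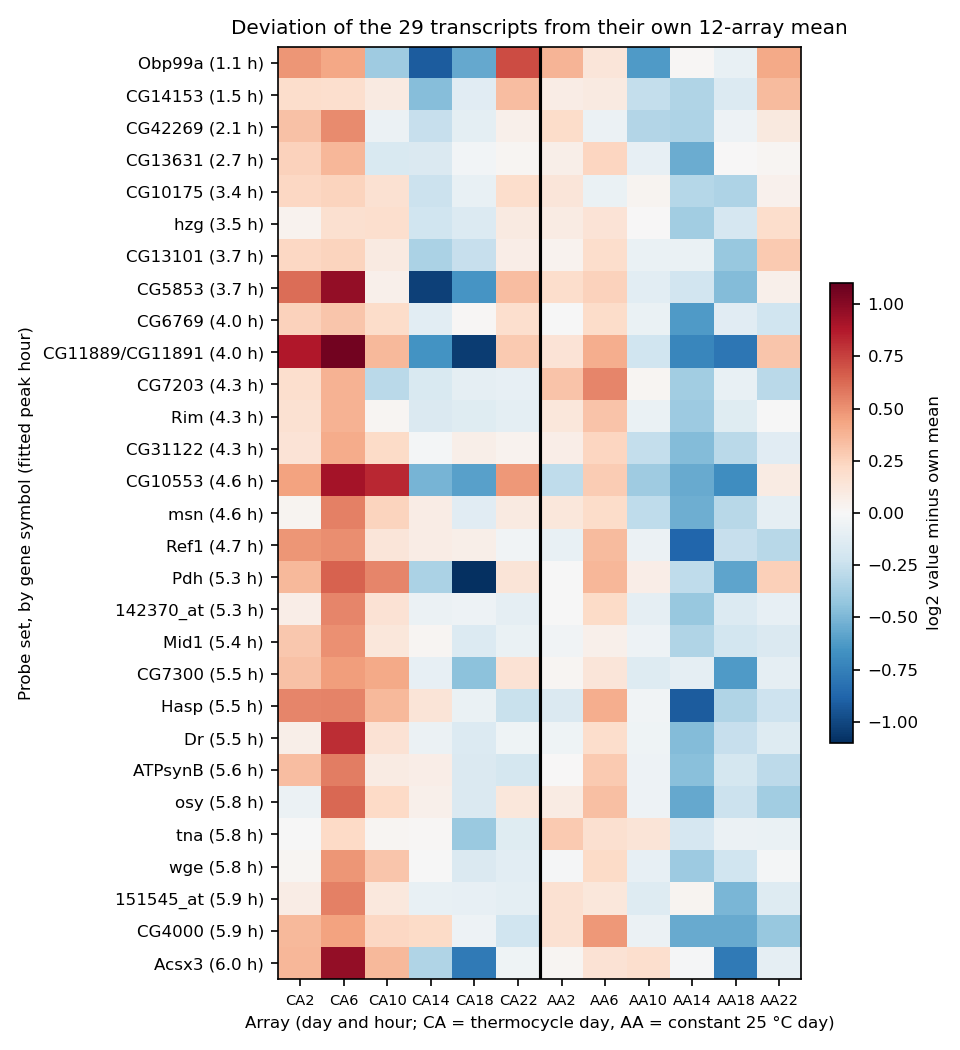
Log2 value minus the probe set's own 12-array mean for the 29 members, in rows ordered by fitted peak hour (in brackets), with the 6 CA arrays on the left and the 6 AA arrays on the right. The CA6 column is the highest of all 12 arrays for 22 members and the AA14 column the lowest for 17.

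The strongest profile of the 29 belonged to *CG11889*/*CG11891*, neighbouring genes of the ecdysteroid kinase-like family, whose better known relatives attach phosphate to steroid hormones. On the CA day its log2 values were 5.72, 5.90 and 5.20 at hours 2, 6 and 10 and 4.19, 3.80 and 5.13 at hours 14, 18 and 22. On the AA day they were 4.99, 5.24 and 4.62 at hours 2, 6 and 10 and 4.13, 4.05 and 5.15 at hours 14, 18 and 22. Both days were thus lowest at hour 18 and highest at hour 6, and only on the CA day did the 3 cold hours lie wholly above the 3 warm ones. The fitted amplitude was 0.82 (SE 0.13) with a peak at hour 3.99 (SE 0.59), and 83.9% of the variance was in the 24-h component.

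*CG10553*, from the same family, had log2 values of 6.72, 7.20 and 7.11 at CA hours 2, 6 and 10, and of 5.78, 5.69 and 6.76 at CA hours 14, 18 and 22. At AA hours 2, 6 and 10 it had 6.001, 6.56 and 5.89, and at AA hours 14, 18 and 22 it had 5.73, 5.60 and 6.38. Every AA value was below the CA value of its hour, and hour 22 stood well above hour 18 on both days. Its amplitude was 0.54 (SE 0.15) with a peak at hour 4.58. The 3 genes lie in 1 stretch of chromosome arm 3R, where *CG11891* and *CG11889* are adjacent and 19 coding genes separate *CG11889* from *CG10553*. The family, a list drawn up after these members were seen, had 44 probe sets on the array, 16 of them at a mean of at least 4. Of these, 4 met the rule at any hour, where 1.33% of all 8121 did. The other 2 were *CHKov1*, at hour 6.44, and *CG13360*, at hour 7.43. Related sequences can share probes, so which copy gave the signal is uncertain. The second probe set annotated to *CG11889* and *CG11891* had a mean of only 3.35, with an amplitude of 0.18 and a peak at hour 1.23. A probe set annotated to *CG11891* alone had a mean of only 2.04, with an amplitude of 0.12 and a peak at hour 23.4, outside the window.

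Transport and lipid enzymes formed the next group. *CG5853*, an ABC transporter of the family of the eye pigment transporter White, had 5.93, 6.29 and 5.38 at CA hours 2, 6 and 10, against 4.29, 4.67 and 5.66 at CA hours 14, 18 and 22. On the AA day it had 5.51, 5.57 and 5.20 at hours 2, 6 and 10, and 5.11, 4.84 and 5.37 at hours 14, 18 and 22. Its highest and lowest CA values differed 3.99-fold and its AA values 1.65-fold, with the peak fitted at hour 3.61 on the CA day and at hour 3.99 on the AA day. *Acsx3*, an acyl-CoA synthetase that activates fatty acids, had 5.53, 6.13 and 5.52 at CA hours 2, 6 and 10 and 4.83, 4.39 and 5.12 at CA hours 14, 18 and 22. Its AA values were 5.18, 5.32 and 5.35, then 5.15, 4.38 and 5.07. The trough at hour 18 was nearly equal on the 2 days, whereas the CA6 value stood apart. *osy*, an ABC transporter needed for the lipid barrier of the cuticle, had a smaller amplitude of 0.31 at hour 5.80.

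*Pdh*, a retinol dehydrogenase of the retinal pigment cells that takes part in recycling the visual chromophore, was among the most abundant members with a mean of 9.69. It had 10.05, 10.34 and 10.23 at CA hours 2, 6 and 10 and 9.35, 8.50 and 9.83 at CA hours 14, 18 and 22. On the AA day it had 9.69, 10.06 and 9.77, then 9.41, 9.12 and 9.95. Both days had their lowest value at hour 18 and a return by hour 22, and the AA groups overlapped through that last hour. None of the 20 phototransduction genes in the list drawn up for the eye was a member, and 0 of them met the rule at any hour. Of all 8121 probe sets with a mean of at least 4, 0.357% were members and 1.33% met the rule at any hour.

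*Obp99a*, an odorant-binding protein, peaked earliest of the 29, at hour 1.11 (SE 0.87), with an amplitude of 0.59 (SE 0.13). Its CA values were 8.58, 8.52 and 7.70 at hours 2, 6 and 10 and 7.18, 7.53 and 8.81 at hours 14, 18 and 22. Its AA values were 8.47, 8.23 and 7.48, then 8.11, 8.01 and 8.52. Hour 22 was the highest on both days, but the lowest hour was 14 on the CA day and 10 on the AA day, and the phases overlapped on both. Of 18 odorant-binding protein genes with a mean of at least 4 it was the only member, where 0.357% of all 8121 probe sets were. The next largest amplitudes in that list were 0.31 for *Obp56e* and 0.24 for *Obp56h*, whose 24-h components held 35.0% and 44.8% of the variance. *CG14153*, *CG42269* and *CG13631* also peaked before hour 3, at hours 1.47, 2.15 and 2.72, with amplitudes of 0.30, 0.28 and 0.25.

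**Figure D2:**
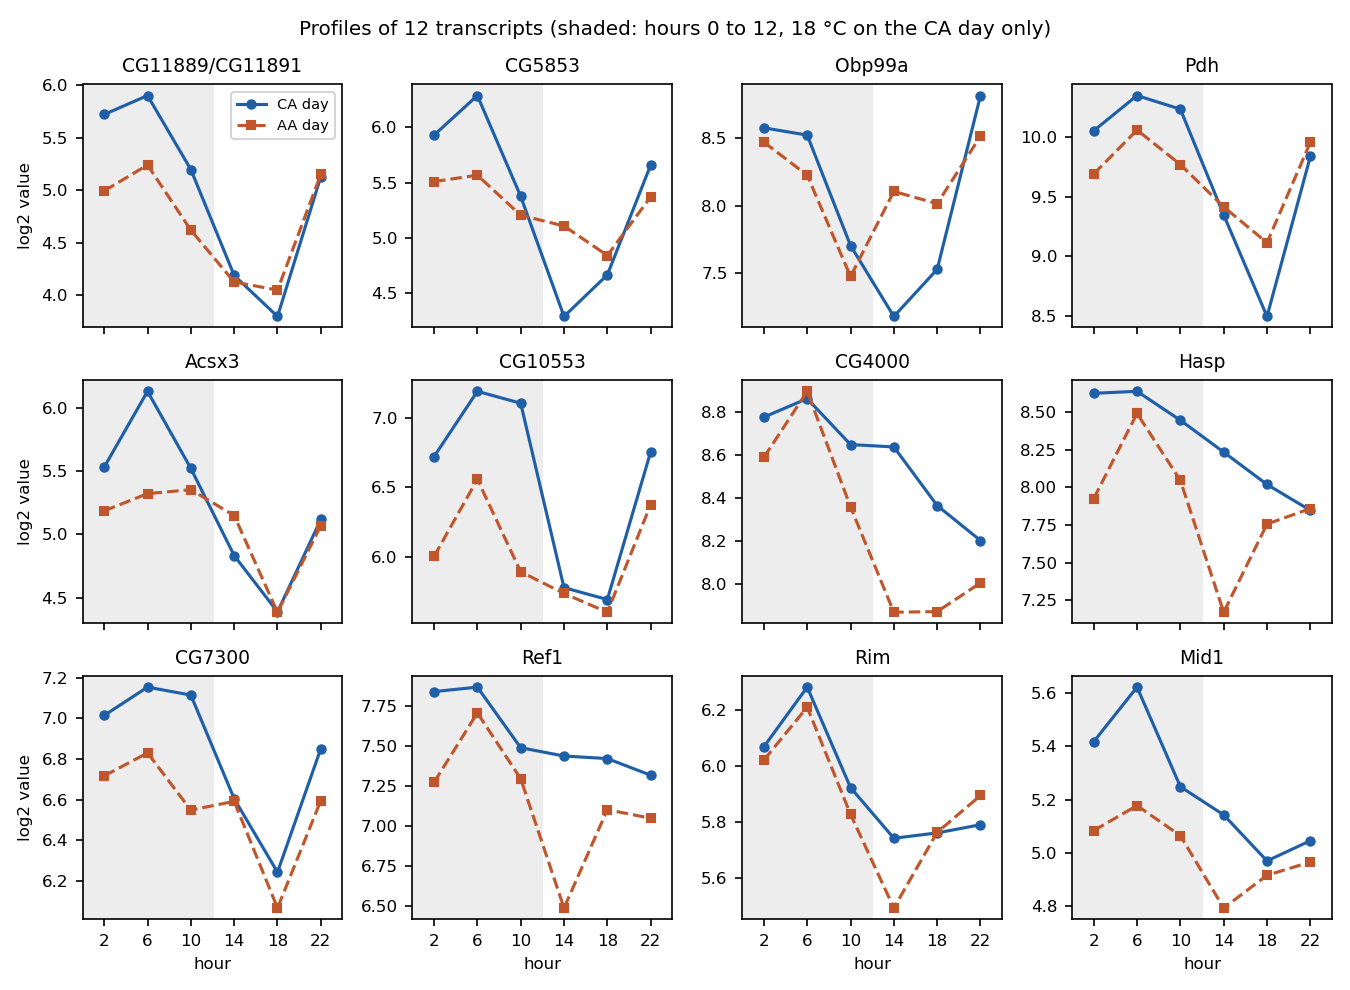
Log2 values at hours 2 to 22 on the CA day (blue, solid) and on the AA day (orange, dashed) for 12 members, with hours 0 to 12 shaded (18 °C on the CA day, 25 °C on the AA day); each point is 1 array, so there are no error bars. *CG5853* and *Pdh* swing further on the CA day, whereas *CG4000*, *Hasp* and *Ref1* have their lowest values at AA14 or close to it.

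3 members are known from synapses or neuronal excitability, although none was in the list of 22 neuronal genes. *Rim*, a scaffold of the presynaptic active zone, had the highest share of variance among members with a single symbol, 80.2%, with an amplitude of 0.26 (SE 0.046) and a peak at hour 4.29. Its values were 6.07, 6.28 and 5.92, then 5.74, 5.76 and 5.79 on the CA day, and 6.02, 6.21 and 5.83, then 5.50, 5.76 and 5.89 on the AA day. *Mid1*, an endoplasmic reticulum protein required for the sodium leak channel of clock neurons, had 5.42, 5.62 and 5.25, then 5.14, 4.97 and 5.05 on the CA day. On the AA day it had 5.08, 5.18 and 5.07, then 4.79, 4.92 and 4.97, so that the phases lay apart on both days. *Hasp*, a scaffold protein of the synaptic cleft, had 8.63, 8.64 and 8.45, then 8.23, 8.02 and 7.85 on the CA day. Its AA values were 7.93, 8.49 and 8.05, then 7.17, 7.76 and 7.86, of which AA14 was the low extreme of all 12 arrays.

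Other members with known roles act in the nucleus or in signalling. *Ref1*, an Aly-type mRNA export adaptor, had 7.84, 7.87 and 7.49, then 7.44, 7.42 and 7.32 on the CA day, and 7.27, 7.71 and 7.30, then 6.49, 7.10 and 7.05 on the AA day. *Dr*, a homeobox transcription factor, was the only member among 26 genes with a mean of at least 4 in the list of transcription factors taken from the study. Of all 8121 probe sets at that level 0.357% were members, and the list was drawn partly from these arrays. The CA6 value of *Dr*, 4.86, stood above the other 11 arrays, which lay between 3.57 and 4.24. *msn*, a Ste20-type kinase of the JNK pathway, had an amplitude of 0.26 at hour 4.64, *wge*, a chromatin protein, 0.24 at hour 5.84, *tna*, an SP-RING protein, 0.21 at hour 5.81 and *hzg*, a phosphatase, 0.20 at hour 3.54.

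The mitochondrial gene *ATPsynB*, subunit b of ATP synthase, was the most abundant member with a mean of 9.87, an amplitude of 0.31 and phases that lay apart on both days. The remaining members are uncharacterised or were left without a stated role. *CG4000* had an amplitude of 0.39 at hour 5.92, with 8.78, 8.86 and 8.65, then 8.64, 8.37 and 8.20 on the CA day and 8.59, 8.90 and 8.36, then 7.87, 7.87 and 8.01 on the AA day. *CG7300* had 0.34 at hour 5.49, *CG7203* 0.31 at hour 4.28, *CG13101* 0.26 at hour 3.70, *CG31122* 0.23 at hour 4.29, *CG6769* 0.23 at hour 3.97 and *CG10175* 0.22 at hour 3.41. The unnamed probe sets 151545_at and 142370_at had 0.25 at hour 5.87 and 0.23 at hour 5.28.

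Near the limits, the lowest shares of variance inside were 0.61 for *Ref1*, 0.61 for *CG10553* and 0.62 for *osy*, and just outside lay *spen*, *Dip-B* and *CG10237*, all at 0.59. The smallest amplitudes inside were 0.20 for *hzg*, 0.21 for *tna* and 0.22 for *CG10175*, and those just outside were 0.196 for a probe set shared by *CG32537* and *CG32536*, 0.19 for *fbl* and 0.19 for *CG3823*. The lowest mean levels inside were 4.04 for *Dr*, 4.10 for *CG14153* and 4.28 for *CG42269*, and outside 3.86 for *B4*, 3.74 for *Gasp* and 2.93 for *CG17364*. The latest peaks inside were those of *Acsx3* at 5.95, *CG4000* at 5.92 and 151545_at at 5.87, and just past the window came *Inx2* at 6.02, *Csk* at 6.07 and *Ets65A* at 6.16. At the early end no member peaked before *Obp99a*, and the nearest outside were 143233_at, *Alp9* and *CG17633*, whose peaks lay 1.86, 1.89 and 2.85 h before hour 0.

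**Figure D3:**
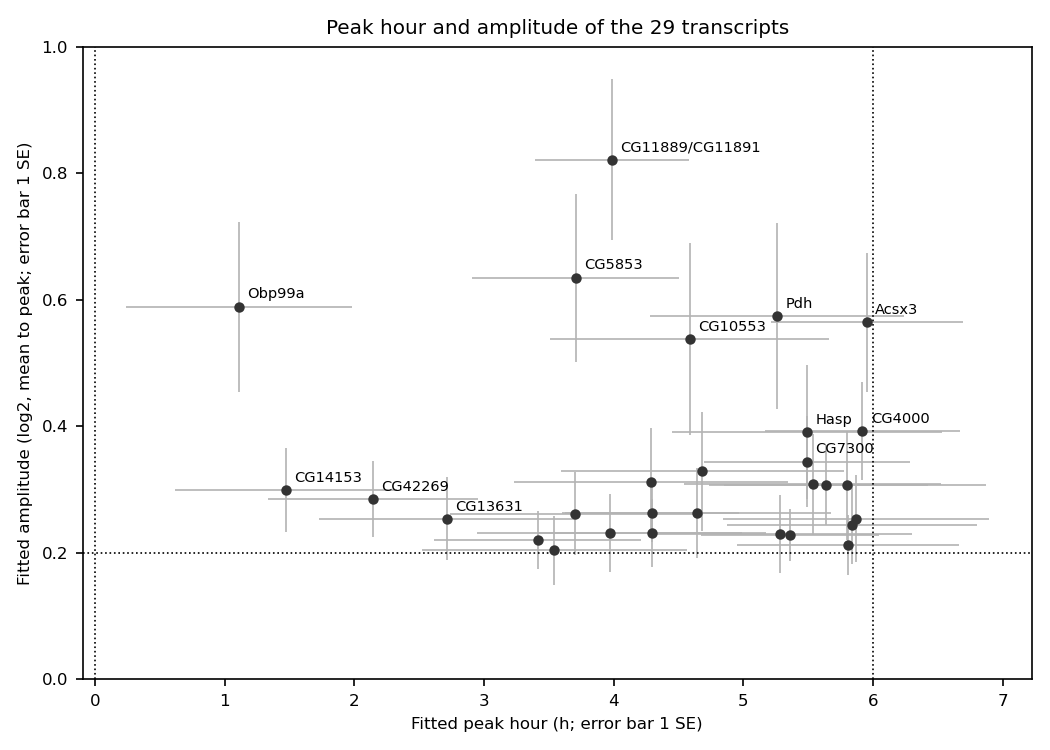
Fitted amplitude (log2) against fitted peak hour for the 29 members, each point 1 probe set with bars of 1 standard error, and dotted lines at the limits of the rule. 6 members have amplitudes over 0.5, and the points crowd between hours 3 and 6.

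The question of whether the profile was shared by the thermocycle day and the constant day was described by separate fits. The median amplitude was 0.30 on the CA day (range 0.17 to 1.06) and 0.28 on the AA day (range 0.16 to 0.61), and reached 0.2 in 26 members on the CA day and in 28 on the AA day. The 6 members of largest amplitude all had the larger one on the CA day, 0.74 to 1.06 against 0.33 to 0.61 on the AA day. Among the other 23 the day of larger amplitude was split, with CA larger in 12 and AA larger in 11. In the fit to the CA day the peak lay in the window for 19 members, in the fit to the AA day for 27, and in both fits for 17. The median peak was hour 5.58 on the CA day and hour 3.99 on the AA day, and 25 of 29 were later on the CA day. None of these differences was tested, since each day's rhythm entered the choice of members.

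**Figure D4:**
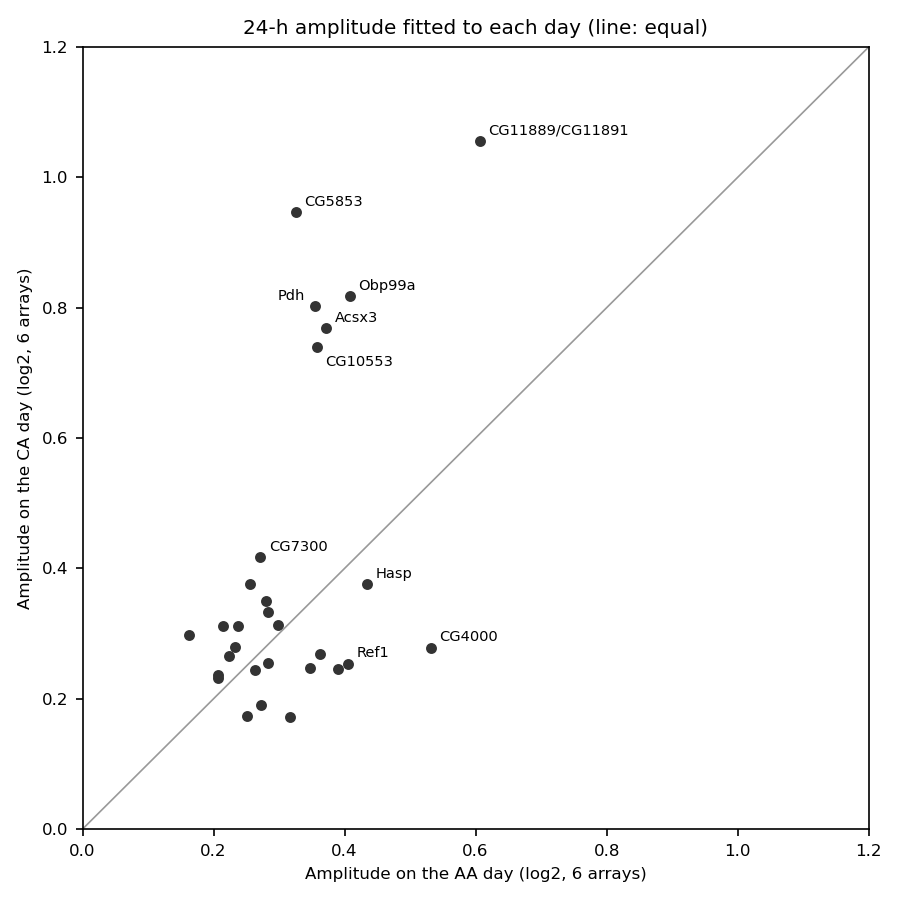
Amplitude (log2) fitted to the 6 CA arrays against that fitted to the 6 AA arrays, each point 1 of the 29 members, with the line of equality. The 6 members of largest overall amplitude lie above the line, and the other 23 lie on both sides of it.

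The cold hours all exceeded the warm hours for 17 of 29 members on the CA day, where 4.61% of all 11137 probe sets that passed the signal filter did so. On the AA day the subjective cryophase lay wholly above the subjective thermophase for 11 members, against 3.89% of all, and 8 members had both. The rule used these contrasts, so nothing is read from the excess. Hour 22 exceeded hour 18 in 22 members on the CA day, in 23 on the AA day and in 18 on both. The *eIF-4a* signal difference also rose between those hours, from 1.55 to 3.23 on the CA day and from 1.475 to 3.076 on the AA day. The part of RNA quality in the members' rise at hour 22 was not tested.

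CA6 and AA14 were the arrays at the extremes. CA6 was the highest of the CA day for 26 members and AA6 the highest of the AA day for 20, while AA14 was the lowest of the AA day for 19. The members' median deviation from their own means was 0.50 at CA6 and -0.40 at AA14. The neuronal score was also highest at CA6 (0.21) and lowest at AA14 (-0.24), with a 24-h fit that peaked at hour 6.67 and held 36.4% of its variance. With that score in the fit, 12 of the 29 met the rule: *CG11889*/*CG11891*, *CG5853*, *Pdh*, *Obp99a*, *CG7300*, *CG13101*, *CG14153*, *CG4000*, *CG42269*, *CG10175*, *CG13631* and *ATPsynB*. Of the 17 that did not, 12 had amplitudes under 0.2, among them *Rim* (0.196, with 93.0% of the variance), *Mid1* (0.184), *Dr* (0.191) and *Ref1* (0.198), and 10 had a share under 0.6. The amplitude was larger with the score than without it for 3 of the 17: *Acsx3* (0.68, lost because its peak moved to hour 6.08), *CG10553* (0.60, with 59.5% of the variance) and 151545_at (0.28, with 57.4%). Peaks in that fit ran from hour 0.66 to hour 6.08. The part of neuronal RNA in the pattern was not tested further.

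Leaving out each array in turn changed the number of probe sets that met the rule from 29 to between 18 and 64. It was 18 without CA6, 58 without CA2, 64 without AA2 and 47 without AA18, and it lay within 1.5 times 29 without any of the other 8 arrays. The members kept numbered 16 without CA6, 17 without AA6 and 18 without AA14, and at least 23 without any other array. The 7 that met the rule whichever array was left out were *CG11889*/*CG11891*, *CG14153*, *CG42269*, *CG5853*, *CG7300*, *Obp99a* and *Rim*. At the other end, *osy* and 151545_at were each lost without any of 6 arrays. Without both CA6 and AA14, 22 probe sets met the rule and 11 of them were members.

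For 7 single-symbol members, 11 further probe sets were on the array, and 0 of them reached a share of 0.6. Their 24-h components held between 0.39% and 48.8% of the variance, 7 peaked at hours 0 to under 6 and 4 had amplitudes of at least 0.2. Of all 8121 probe sets with a mean of at least 4, 1560 peaked in that window. The second probe set of *CG31122* peaked at hour 4.09 with an amplitude of 0.39, and 1 of *Mid1* at hour 3.68 with 0.11, whereas the second probe set of *CG42269* peaked at hour 19.7 with 0.11. For *Rim*, the other 2 probe sets had amplitudes of 0.080 and 0.010. The other probe sets of *osy* had amplitudes of 0.49 and 0.35 at hours 6.84 and 5.38, and those of *wge* 0.040 and 0.32 at hours 5.20 and 5.82. Probe sets of 1 gene can measure different transcripts, and this was not tested. The second probe set of *Hasp* peaked at hour 2.29 with an amplitude of 0.077, and the third of *Mid1* at hour 3.42 with 0.10.

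Of the clock probe sets with an amplitude of at least 0.2, that of *Clk* peaked nearest to the members' median hour of 4.64. Its values were 4.63, 5.04 and 5.40 at CA hours 2, 6 and 10 and 4.33, 4.10 and 4.75 at CA hours 14, 18 and 22, and on the AA day 4.31, 4.77 and 4.78, then 3.93, 4.08 and 4.96. The fit gave an amplitude of 0.37 at hour 5.68 (SE 1.63) with 40.7% of the variance, below the limit of the rule. *vri* peaked at hour 15.5 and *cry*, the blue-light receptor, at hour 13.1, each with over 60% of its variance in the 24-h component, and a *tim* probe set at hour 19.3 with 49.0%. The other *tim* probe sets peaked at hour 18.5 with 26.4% and, at a mean of only 1.87, at hour 7.75. *per* peaked at hour 9.98 and *Pdp1* at hour 6.38, with amplitudes of 0.19 and 0.10, which like that of *cry* (0.19) lay under 0.2. Of the 13 genes of the core clock list with a mean of at least 4, 3 peaked at hours 0 to under 6, and 0 were members. Among all 8121 probe sets at that level, 1560 peaked in that window and 29 (0.357%) were members. Beside *Clk*, the clock genes that peaked in the window were *cyc*, at hour 4.67 with an amplitude of 0.056, and *Pdfr*, at hour 5.53 with 0.10. Of the 20 lists drawn up, with 2 to 70 genes each at a mean of at least 4, only odorant-binding proteins and transcription factors held a member, 1 each. Since only 0.357% of all 8121 probe sets were members, nothing is read from these counts. The cuticle protein list also held 1 of the 2 probe sets left out by name, whose values met the limits.

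By position, 12 of the 26 single-symbol members lay on chromosome arm 3R (46.2%, against 24.5% of single-symbol probe sets at that level), 7 on 3L, 5 on 2L, 1 on 2R and 1 on X. Apart from the kinase-like genes, the nearest pairs were *CG14153* and *tna*, with 10 coding genes between them, and *Dr* and *Obp99a*, with 11. These are counts of position only, and no test was made of them.

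The rule removes day means and so did not use the members' level on the 2 days directly, although the limit on variance also limits the spread in the test. CA6 was the highest of all 12 arrays for 22 members and AA14 the lowest for 17, and both arrays also enter the day means. The day difference therefore cannot be taken as independent of the rule. Mean log2 values were higher on the CA day than on the AA day for 26 of the 29 members, where 44.4% of all 11137 probe sets were above 0. Without CA6 and AA14 these were 19 members and 46.0% of all probe sets. With all 12 arrays the median difference, CA minus AA, was 0.18 over the members and -0.012 over all probe sets. With the *eIF-4a* difference as a covariate, 21 members and 49.1% of all probe sets were above 0, and the members' median was 0.15. For 9 members CA exceeded AA at all 6 hours, against 4.25% of all probe sets: *CG10553*, *CG7300*, *Ref1*, *Dr*, *ATPsynB*, *CG31122*, *CG6769*, *Mid1* and *CG10175*. No member was called by limma at an adjusted p of 0.05, and neither was any other probe set (0% of 11137). At an unadjusted p under 0.05, 12 members were higher and 0 lower on the CA day, where the shares of all probe sets were 3.09% higher and 2.73% lower.

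The smallest p-values among the members belonged to *Mid1*, *Ref1* and *Hasp*. *Mid1* ranged from 4.97 to 5.62 on the CA day and from 4.79 to 5.18 on the AA day (SD 0.24 on the CA day and 0.14 on the AA day, n = 6 arrays each), with a difference in means of 0.24 (SE 0.070, limma adjusted p = 0.796). *Ref1* averaged 7.56 ± 0.23 on the CA day and 7.15 ± 0.40 on the AA day (SD), a difference of 0.41 (SE 0.12, limma adjusted p = 0.796). *Hasp* averaged 8.30 ± 0.32 on the CA day and 7.88 ± 0.43 on the AA day (SD), a difference of 0.43 (SE 0.13, limma adjusted p = 0.796). The lowest CA values of *Mid1*, *Ref1* and *Hasp* lay below the highest AA values, so the ranges of the days overlapped for each. These ranges and SDs include the daily rhythm. Hour for hour, CA exceeded AA at 6 of 6 hours for *Mid1* and *Ref1* and at 5 of 6 for *Hasp*. The largest difference was that of *CG10553*, 0.52 (SE 0.20, limma adjusted p = 0.796). With the *eIF-4a* difference as a covariate it was 0.29 (SE 0.12). Of the 3 members that were lower on the CA day, *tna* differed by -0.10 (SE 0.075, limma adjusted p = 0.834), *Obp99a* by -0.08 (SE 0.27) and *CG7203* by -0.03 (SE 0.12). Single arrays turned the sign of the last pair: *Obp99a* was 0.061 without CA10, 0.085 without CA14 and 0.023 without AA2, and *CG7203* was 0.064 without CA10, 0.028 without AA6 and 0.0088 without AA18.

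**Figure D5:**
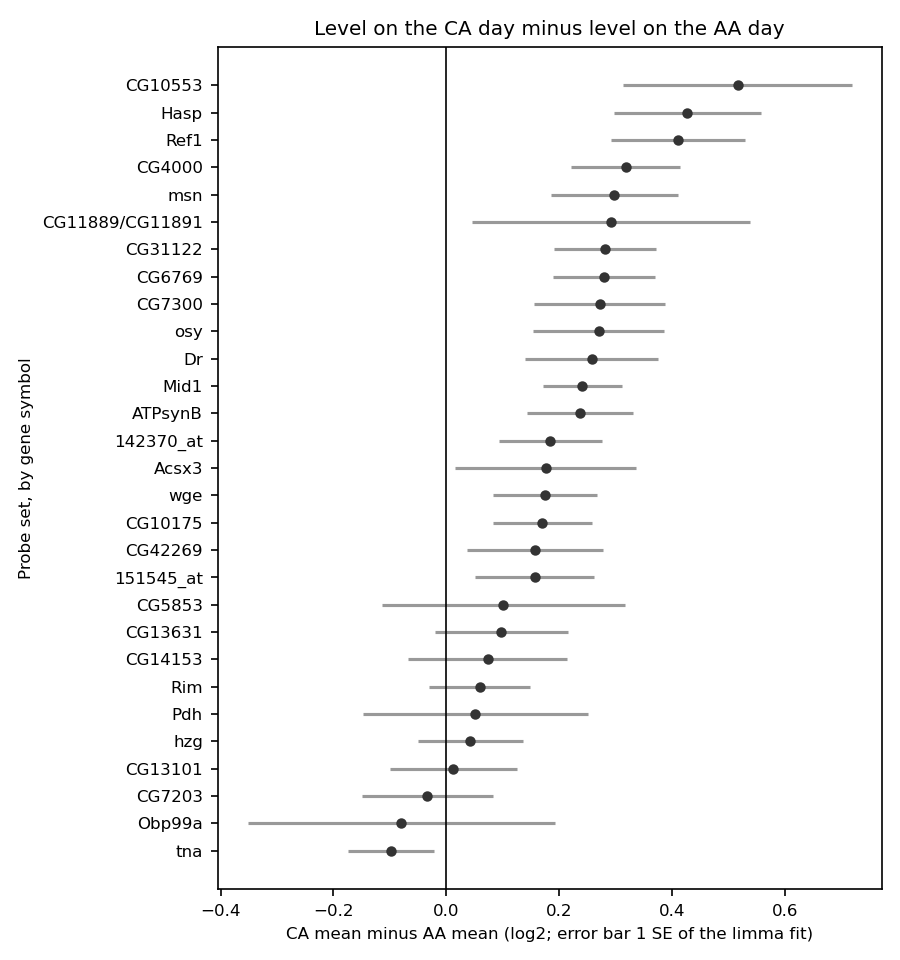
CA mean minus AA mean (log2) for the 29 members, in order of size, with bars of 1 standard error of the limma fit. 26 points lie to the right of 0, and no difference passed the threshold after adjustment over 11137 probe sets.

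Split by hour, as a description, the median CA minus AA difference was 0.23 at hours 2, 6 and 10, when the CA flies were at 18 °C and the AA flies at 25 °C, and 27 members were above 0. At hours 14, 18 and 22, when both days were at 25 °C, it was 0.13 and 20 members were above 0. For *CG11889*/*CG11891* the differences were 0.66 at the early hours and -0.07 at the late hours, and for *CG5853* 0.44 and -0.24. *Ref1* went the other way, with 0.31 early and 0.51 late, and *CG4000* had 0.15 early and 0.49 late. Without CA6 and AA14 together, the median day difference was 0.13 and 19 members were above 0. The count of 12 members higher at an unadjusted p under 0.05 stood beside 344 of all 11137 probe sets (given in brackets below). It was 6 (221) without CA6, 7 (205) without AA2, 6 (369) without AA10 and 7 (302) without AA14. It was 14 without CA2 (567), AA6 (442) or AA22 (444), and 8 to 11 without any other array. Without both CA6 and AA14 it was 5 (204). With all 12 arrays it was 6 (320) when the model held only the 2 days. It was 16 (816) when arrays were paired by hour, with hour of day as a block.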

How the data were processed

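Expression on the deposited scale is in log2, as summarised by the authors for each time course with robust multi-array averaging (RMA), whose version is not given in the sources used here. The log base was read from the range and the array medians. No further normalization was applied. Of 14010 probe sets, 44 controls were left out. Gene names came from the platform annotation, and 12394 probe sets with 1 symbol were matched by Entrez identifier to the RefSeq gene table, used for names, chromosome arms and neighbours only. Nothing says whether hours came from separate cultures, so p-values measure only the spread between these arrays, whose number limits the precision.

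The members and the gene lists were chosen with earlier results of these data known, and the ecdysteroid kinase-like list after the members were seen. Daily rhythm was fitted by least squares after each day's mean was removed, with standard errors by the delta method. The levels on the days were compared with limma on 4 group means (all 12 arrays, two-sided, Benjamini-Hochberg over the 11137 probe sets with more than 6 of 12 values above 2.93, the 20th percentile). Single-symbol genes were named by rule: the 10 largest amplitudes, the 5 highest shares of variance, members of lists, the 3 smallest p in each direction and the 3 on either side of each limit. Other members and genes were named after their values were seen. Both fits were tested on simulated data. Alternatives changed the limits, filter, normalization, variance model, blocks, covariates and arrays. The neuronal score and the omission of both CA6 and AA14 were added after seeing the data. Rhythms were fitted in Python 3.11.15 (pandas 2.3.3, numpy 2.4.6), figures drawn with matplotlib 3.10.9, and levels tested with limma 3.58.1 in R 4.3.3. No sequence is shown, since none was among the reference tables used here.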

Additional observations from a re-analysis of the deposited data

How the results depend on the processing

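The number of probe sets that met the rule was 53 with a share of at least 0.5 and 14 with 0.7, 14 with an amplitude of at least 0.3, 16 with a window from hour 23 to under 5, 57 with the *eIF-4a* difference as a covariate (27 of the 29 kept), 124 on the CA day alone (15 kept) and 104 on the AA day alone (20 kept), and 18 to 64 when 1 array was left out. In the other alternatives of the 27 it stayed within 1.5 times 29, which does not show that the same genes were kept: quantile normalization gave 29 with 23 kept, the gut and male score as a covariate 29 with 20 kept, and the neuronal score 32 with 12 kept. In all 24 alternatives of the day comparison limma called 0 members, and the smallest adjusted p among them ran from 0.171, with hour of day as a block, to 0.999. The number above 0 ran from 19 to 28, and when 1 array was left out the median difference ran from 0.12 to 0.23. The small negative differences changed sign: *tna* was 0.0099 and *CG7203* 0.0011 with array weights, and leaving out 1 array gave -0.32 to 0.085 for *Obp99a* and -0.11 to 0.064 for *CG7203*. The labels carry no replicate numbers, and the pairing by shared hour, used as that block, changed no call. With 1 array per hour and day, no hour has a replicate within its day.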
